A study of Mus musculus with 6 samples.

Results

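The genes described here encode 7 intermediate filament proteins: the neurofilament light, medium and heavy chains (*Nefl*, *Nefm*, *Nefh*), α-internexin (*Ina*), peripherin (*Prph*), vimentin (*Vim*) and nestin (*Nes*). They were taken by symbol from count tables of 23420 gene symbols, and all 7 received an adjusted p-value. The family was picked on measured values in these libraries: *Nefm* was far lower and *Prph* far higher in the *Patz1* knockout (KO). The KO against WT difference of those 2 genes is therefore given as a description, without a test. RNA-seq was performed on 3 WT and 3 *Patz1* KO libraries of E14 mouse embryonic stem cells (ESCs), to ask how the transcriptome differs when PATZ1, an insulation factor with zinc fingers, is missing. Both genotypes were kept in LIF with inhibitors of MEK and GSK3 (2i), which hold ESCs undifferentiated. The KO was made in E14TG2a cells with Cas9 and a guide RNA to *Patz1*, and single clones were picked. The study calls the libraries biological replicates, but neither the number of clones behind the 3 KO libraries nor whether the libraries came from separate cultures is given in the labels, so a trait of 1 clone and the loss of PATZ1 cannot be told apart. The p-values measure the spread between these libraries, which may be technical.

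Intermediate filaments are rope-like polymers that give cells mechanical strength. In mature neurons, the neurofilament triplet assembles with *Ina* or *Prph* products and fills the axon, where it sets axon calibre; peripherin is best known from peripheral and motor neurons. Vimentin is the filament of mesenchymal and many cultured cells, and nestin is a marker of neural progenitors, so none of the 7 is regarded as a specific ESC gene.

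Total counts ranged from 11040756 to 47721070 per library. Both replicate 3 libraries were the shallow ones, and there the ribosomal RNA gene *Rn45s* took 14.4% (WT) and 12.5% (KO) of the counts, against 1.79% to 3.03% in the other 4 libraries. Normalized counts are counts divided by a size factor per library, and a floor of 3 counts stood for 1.69 to 8.21 of them. Floors and counting intervals cover counting error only. For *Patz1* itself, the WT libraries gave 1838, 1983 and 1843 normalized counts and the KO libraries 853, 862 and 862, so the libraries followed their labels, with transcript still present. The ESC label matched the levels of its markers: *Pou5f1* averaged 32176 normalized counts in WT and 35441 in KO, and *Nanog* 14318 and 14451. Between genotypes, 0 of 8 ESC markers passed the test (DESeq2; 1 at an unadjusted p under 0.05, 0 with edgeR), beside 7.49% of all tested genes. With the replicate number as a block, 3 of the 8 passed.

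In WT ESCs, vimentin was the most abundant of the 7 transcripts. Levels were compared between genes per kilobase of exon and per 1000000 counts of the library, since a longer transcript collects more reads. On this scale the WT mean of *Vim* was 34.7 (range 28.0 to 39.1 over 3 libraries), that of *Nefh* 17.1 (13.6 to 20.2) and that of *Nefl* 7.35 (4.85 to 9.59). *Nes* followed at 4.03 (3.94 to 4.14) and *Prph* at 3.42 (2.72 to 3.85). *Ina* at 1.52 (0.95 to 1.92) and *Nefm* at 1.18 (0.893 to 1.35) came last, and these 2 neighbours in the order overlapped, as no other pair of neighbours did. The heavy chain was thus the leading neurofilament transcript of these cells and the medium chain the scarcest. In KO the per-length means ran *Vim* 33.0, *Prph* 17.7, *Nefh* 11.8, *Nes* 2.71, *Nefl* 1.80, *Ina* 0.99 and *Nefm* 0.0282, so that *Prph* stood next to *Vim* at the top. Of the neighbours in that order, *Nes* (1.93 to 3.19) and *Nefl* (1.35 to 2.11) overlapped.

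The neurofilament triplet was lower in KO at all 3 genes, but to very unequal degrees. *Nefm*, the medium chain, is the extreme. It had 206, 137 and 227 normalized counts in WT replicates 1, 2 and 3, and 7.34, 3.56 and 2.64 in KO replicates 1, 2 and 3. Every WT library lay far above every KO library, with no overlap. The raw counts were 361, 194 and 83 in WT and 13, 6 and 1 in KO, the last being under the floor of 3 counts. The KO mean was 2.37% of the WT mean (4.51 ± 2.49 against 190 ± 47.3, mean ± SD, n = 3), which is 42.2-fold lower. Within pairs of equal replicate number, the KO level of *Nefm* was 3.55% of WT (exact 95% counting interval 1.87% to 6.15%), 2.60% (0.942% to 5.76%) and 1.16% (0.0291% to 6.66%). The last interval is wide because a single read stands behind it. The fitted log2 fold change was -5.19 (SE 0.42) and stayed between -5.80 and -4.90 over 14 alternative fits. As in any bulk sample, fewer cells holding a transcript and less of it per cell cannot be told apart.

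*Nefl*, the light chain and the core subunit on which the other neurofilaments depend for assembly, fell to 25.2% of WT. It had 858, 681 and 496 normalized counts in the WT libraries and 177, 198 and 137 in the KO libraries. The lowest WT library held more than any KO library, and in both genotypes replicate 3 was the lowest. The log2 fold change was -1.97 (SE 0.20, 95% interval -2.36 to -1.58, adjusted p = 1.37e-20, DESeq2 Wald test, two-sided). Only 180 of 15309 tested genes (1.18%) had a lower one. *Nefl* passed the test in all 14 alternatives, with log2 fold changes between -2.13 and -1.77.

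*Nefh*, the heavy chain, whose long tail projects from the filament, decreased to 70.5% of WT. Its normalized counts were 2139, 1865 and 1640 in WT and 1319, 1270 and 1387 in KO, and the groups did not overlap. The log2 fold change was -0.51 (SE 0.12, 95% interval -0.75 to -0.28, adjusted p = 0.000654, DESeq2), a call that was lost when chromosome 11 was centred in each library (-0.24, adjusted p = 0.198) and kept when centring was combined with the replicate block (-0.25, adjusted p = 0.0285). *Nefh* lies on chromosome 11, 1.63 Mb from *Patz1*. There 254 of 1258 tested genes passed as lower (20.2%), against 4.78% of all tested genes, and the median log2 fold change was -0.27 against 0.01 over all tested genes. Among these chromosome 11 genes, 231 (18.4%) had a lower log2 fold change than *Nefh*. Whether its change and the shift of its chromosome share a source was not tested.

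**Figure D1:**
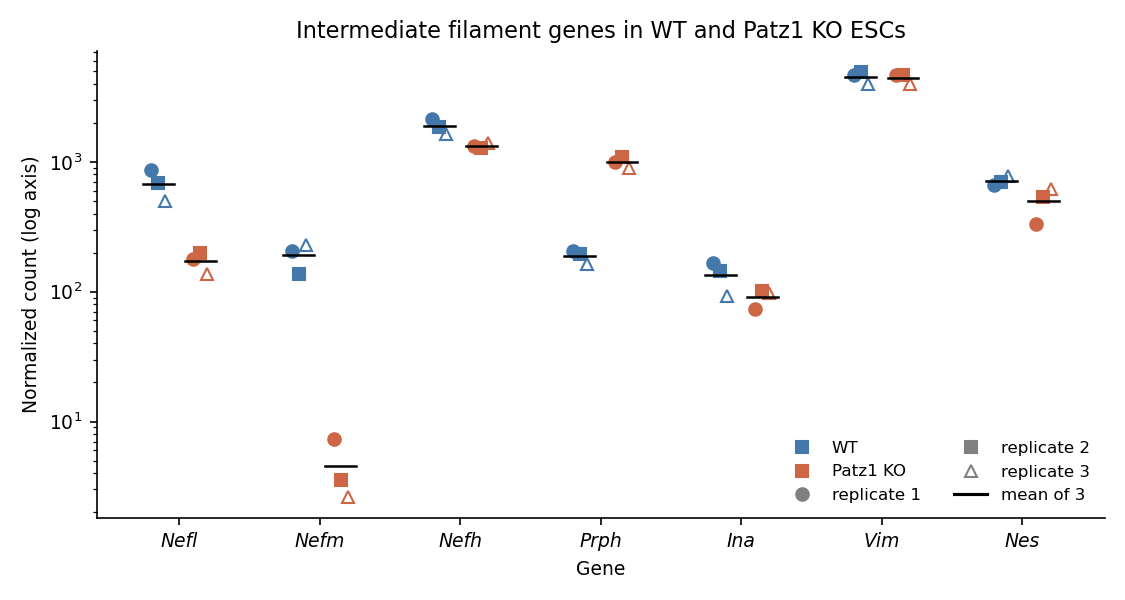
Normalized counts (vertical log axis) of the 7 intermediate filament genes in each of the 3 WT and 3 *Patz1* KO libraries, with 1 symbol per library and a line at each genotype mean. The genotypes are furthest apart for *Nefm* (137 to 227 in WT, 2.64 to 7.34 in KO), separated in the opposite sense for *Prph* (164 to 204 against 893 to 1090), and overlap for *Ina* and *Vim*.

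*Prph*, a type III filament protein that can assemble alone or with neurofilaments, was the single member that was higher in KO. Its normalized counts were 204, 196 and 164 in the WT libraries and 1005, 1090 and 893 in the KO libraries. Each KO library lay well above every WT library, and the 3 libraries of a genotype lay close together. The mean was 188 ± 20.8 in WT and 996 ± 98.7 in KO (mean ± SD, n = 3), a 5.3-fold difference. Same-numbered pairs gave 4.93-, 5.57- and 5.44-fold. The log2 fold change of 2.38 (SE 0.14) varied only from 2.32 to 2.45 over the 14 alternatives.

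The promoter of *Prph* is printed because this gene stands against the rest of the family, and that of *Vim*, a type III relative whose transcript level did not pass the test, is set beside it. Both are the RefSeq windows of 300 bases (250 before to 50 after the start, GRCm38.p6, plus strand): chr15:99054924-99055223 for *Prph* and chr2:13574061-13574360 for *Vim*. The *Prph* window is set on the start at 99055174, whereas the RefSeq span of the gene opens upstream of it, at 99053579. Capitals mark GGGAGGG, a G-rich word chosen for its likeness to the motifs described for MAZ and PATZ1, or its reverse complement, and TATAAA on the coding strand.
Prph: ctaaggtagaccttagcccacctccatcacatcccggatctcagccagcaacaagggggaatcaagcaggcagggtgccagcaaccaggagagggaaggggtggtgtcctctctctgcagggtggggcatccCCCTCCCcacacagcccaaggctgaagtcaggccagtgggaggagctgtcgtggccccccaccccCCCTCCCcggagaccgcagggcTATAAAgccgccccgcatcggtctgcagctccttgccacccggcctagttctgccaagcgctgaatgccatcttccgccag
Vim: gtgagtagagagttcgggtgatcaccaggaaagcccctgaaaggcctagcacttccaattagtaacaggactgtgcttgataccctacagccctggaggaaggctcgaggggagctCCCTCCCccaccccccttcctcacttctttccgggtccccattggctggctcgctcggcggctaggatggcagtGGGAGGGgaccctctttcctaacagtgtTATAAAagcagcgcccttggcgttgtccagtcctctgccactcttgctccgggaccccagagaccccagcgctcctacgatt
The *Prph* window held GGGAGGG 2 times, both on the non-coding strand, and TATAAA starting 31 bases before the start site. The *Vim* window held GGGAGGG 1 time on each strand and TATAAA 32 bases before the start. Of the 2 other members with an entry, the *Ina* window held GGGAGGG 1 time and no TATAAA, and the *Nes* window held neither. Among 32851 windows of this length, 22.0% held GGGAGGG on either strand, 8.32% held TATAAA and 1.18% held both. These matches describe letters, not bound sites.

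*Ina*, the neurofilament partner of central neurons, was lower in KO on average but did not pass after adjustment over all genes. It had 165, 145 and 93.1 normalized counts in WT and 73.9, 101 and 97.8 in KO, and WT replicate 3 lay inside the KO range. The log2 fold change was -0.62 (SE 0.25, 95% interval -1.12 to -0.12, adjusted p = 0.127, DESeq2). The shallow WT replicate 3 library, with 34 raw counts, decided this call: without it the value was -0.79 (adjusted p = 0.0176), and without both replicate 3 libraries -0.83 (adjusted p = 0.0202).

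*Nes* gave 669, 704 and 778 normalized counts in WT and 334, 536 and 618 in KO. The lowest WT library was above the highest KO library, yet the KO libraries spread widely, from 334 to 618. The log2 fold change of -0.54 (SE 0.19, 95% interval -0.91 to -0.18) did not pass (adjusted p = 0.0509, DESeq2). It passed in 5 of 14 alternatives: with the replicate block (-0.59, adjusted p = 0.000235), also when chromosome 11 was centred, with a filter of 10 counts in 3 libraries (-0.55, adjusted p = 0.0469), without KO replicate 3 (-0.71, adjusted p = 0.00521) and without both replicate 3 libraries (-0.66, adjusted p = 0.00648). In contrast, without KO replicate 1 it was -0.32 (adjusted p = 0.389).

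*Vim*, the most abundant of the 7, did not differ detectably. Its normalized counts were 4639, 4921 and 4011 in WT and 4624, 4652 and 3943 in KO, with overlapping groups. The log2 fold change was -0.04 (adjusted p = 0.934, DESeq2). Its 95% interval of -0.26 to 0.18 rests on the spread between these libraries.

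Setting aside *Nefm* and *Prph*, 2 of the 5 remaining genes passed, both lower, beside 7.49% of all 15309 tested genes in either direction (4.78% lower, 2.70% higher). They were *Nefl*, a neighbour of *Nefm* on chromosome 14, and *Nefh* on chromosome 11, where 20.2% of tested genes passed as lower. The count thus does not stand apart from the locus of *Nefm* and from chromosome 11. The genotypes did not overlap for 3 of these 5 genes, beside 25.6% of tested genes. With the chromosome 11 centring 1 of the 5 passed, where 918 did over all genes, against 1146 in the main fit. With the replicate block 3 of the 5 passed, with or without centring (1744 and 2131 over all genes). Without both replicate 3 libraries 4 of the 5 did (1332 over all genes).

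**Figure D2:**
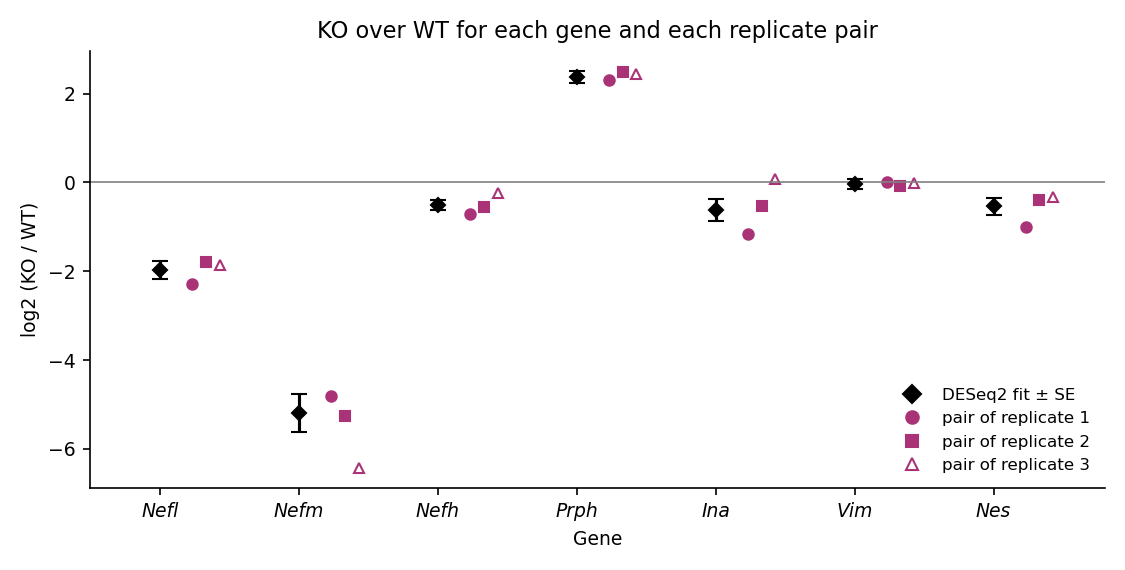
Fitted log2 fold change (KO over WT) of each gene (black diamonds, bars ± SE) beside the log2 ratio of each same-numbered pair of libraries (coloured symbols), 0 standing for no difference. *Nefm* (-5.19) and *Nefl* (-1.97) lie far below 0 and *Prph* (2.38) above it in all 3 pairs, while *Vim* lies near 0 (-0.04) and the pairs of *Ina* run from -1.16 to 0.07.

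The genotypes differed in the make-up of their neuronal filament transcripts. In WT, per length, *Nefh* made up 54.8% to 58.0% of the 5 neuronal filament transcripts (the triplet, *Ina* and *Prph*), *Nefl* 20.7% to 26.0%, *Prph* 10.4% to 11.7%, *Ina* 4.06% to 5.35% and *Nefm* 2.84% to 5.56%. In KO, *Prph* made up 51.6% to 57.2%, *Nefh* 33.4% to 40.1%, *Nefl* 4.70% to 6.14%, *Ina* 2.51% to 3.49% and *Nefm* 0.0528% to 0.140%. *Prph* thus ranked under *Nefh* and *Nefl* in every WT library and above both in every KO library. Within the triplet alone, *Nefh* took 64.9% to 68.8% of the transcripts in WT and 84.3% to 89.4% in KO. The summed normalized counts of the 5 genes were 3572, 3024 and 2620 in WT and 2582, 2663 and 2518 in KO. These shares rest in large part on the 2 genes that chose the family, and no test was made on them.

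**Figure D3:**
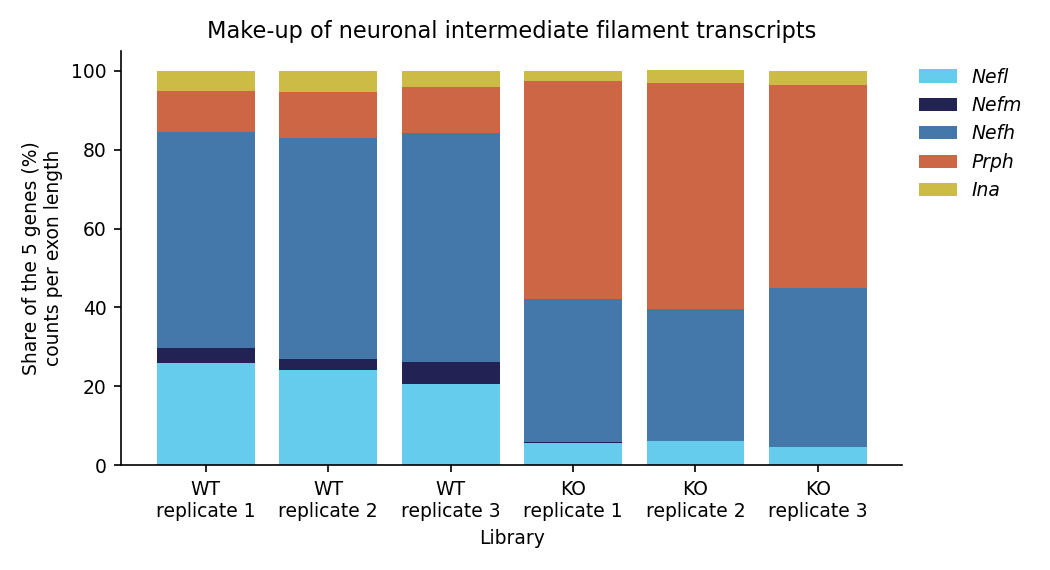
Share (percent, per length) of *Nefl*, *Nefm*, *Nefh*, *Prph* and *Ina* among the transcripts of these 5 genes, 1 bar per library. *Nefh* is the widest segment in the 3 WT bars (54.8% to 58.0%) and *Prph* in the 3 KO bars (51.6% to 57.2%).

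*Nefl* and *Nefm* are neighbours on chromosome 14 and were both lower in KO. On GRCm38, the build called mm10, *Nefl* spans chr14:68083863-68089095 on the plus strand and *Nefm* chr14:68082590-68124846 on the minus strand in GENCODE. One long *Nefm* form overlaps *Nefl* on the opposite strand, with 1108 exonic bases shared, while the RefSeq spans lie 30.4 kb apart. The labels describe stranded libraries, but whether the counting used strand is not given in the sources used here, so reads in the shared stretch are uncertain. Of the 7 other genes within 500 kb, 4 were tested and 0 passed (DESeq2; 0 at an unadjusted p under 0.05 and 0 with edgeR), beside 7.49% of all tested genes, so that 4 genes are too few to set the locus apart, with log2 fold changes between -0.18 and 0.00. The nearest tested gene, *Dock5*, named here after its values were seen, averaged 748 ± 117 normalized counts in WT and 732 ± 110 in KO (mean ± SD, n = 3).

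The other loci were as follows. *Prph* (chr15:99055174-99058978) had 35 neighbours within 500 kb, of which 31 were tested and 0 passed (DESeq2; 5 at an unadjusted p under 0.05, 1 with edgeR), beside 7.49% of all tested genes. With the replicate block *Fkbp11* (-0.33, adjusted p = 0.0211) and *Ccnt1* (-0.26, adjusted p = 0.0491) passed, both lower and both named after their values were seen. Around *Nefh* (chr11:4938754-4948064), 4 of 17 tested neighbours passed, all lower, beside 20.2% of the tested genes of chromosome 11, and the median was -0.31 beside -0.27 on that chromosome. These included *Hormad2*, a meiotic chromosome axis gene (208 ± 22.1 normalized counts in WT and 89.1 ± 24.0 in KO, log2 fold change -1.18, adjusted p = 7.5e-06, DESeq2), *Zmat5* (-0.59, adjusted p = 0.000375, DESeq2) and *Nipsnap1* (-0.58, adjusted p = 0.000558, DESeq2). Under chromosome 11 centring *Zmat5* (-0.31, adjusted p = 0.155), *Nipsnap1* (-0.31, adjusted p = 0.103) and the fourth, *Kremen1*, named after its values were seen (-0.27, adjusted p = 0.481), no longer passed, and *Hormad2* alone of the 4 still passed. With centring and the replicate block, *Zmat5* and *Nipsnap1* passed as well, and *Kremen1* did not (-0.28, adjusted p = 0.338). *Kremen1* was also lost with edgeR (adjusted p = 0.0523) and without WT replicate 1 or 2 or KO replicate 1 or 2 (-0.5 to -0.47, adjusted p = 0.223 to 0.268). The replicate block without centring added *Ap1b1*, *Mtmr3*, *Thoc5*, *Uqcr10* and *Znrf3* around *Nefh*, named after their values were seen. All were lower (-0.39 to -0.24), and the share of chromosome 11 that passed with the block was not computed. Around *Ina* (chr19:47014698-47025327), which overlaps *Nt5c2* on the opposite strand by 456 exonic bases, 2 of 17 passed in opposite directions. They were *As3mt*, an arsenic methyltransferase (0.75, adjusted p = 1.79e-07, DESeq2), and *Neurl1a*, a ubiquitin ligase gene (-0.76, adjusted p = 0.000651, DESeq2; without KO replicate 2, -0.66 and 0.0538). *Vim* (chr2:13573927-13582826) and *Nes* (chr3:87971078-87980451) each had 1 neighbour that passed, of 7 and 30 tested. Over all loci 8 of 106 tested neighbours passed (7.55%), near the share of all genes. With the replicate block 18 did, while the count over all genes went from 1146 to 2131.

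**Figure D4:**
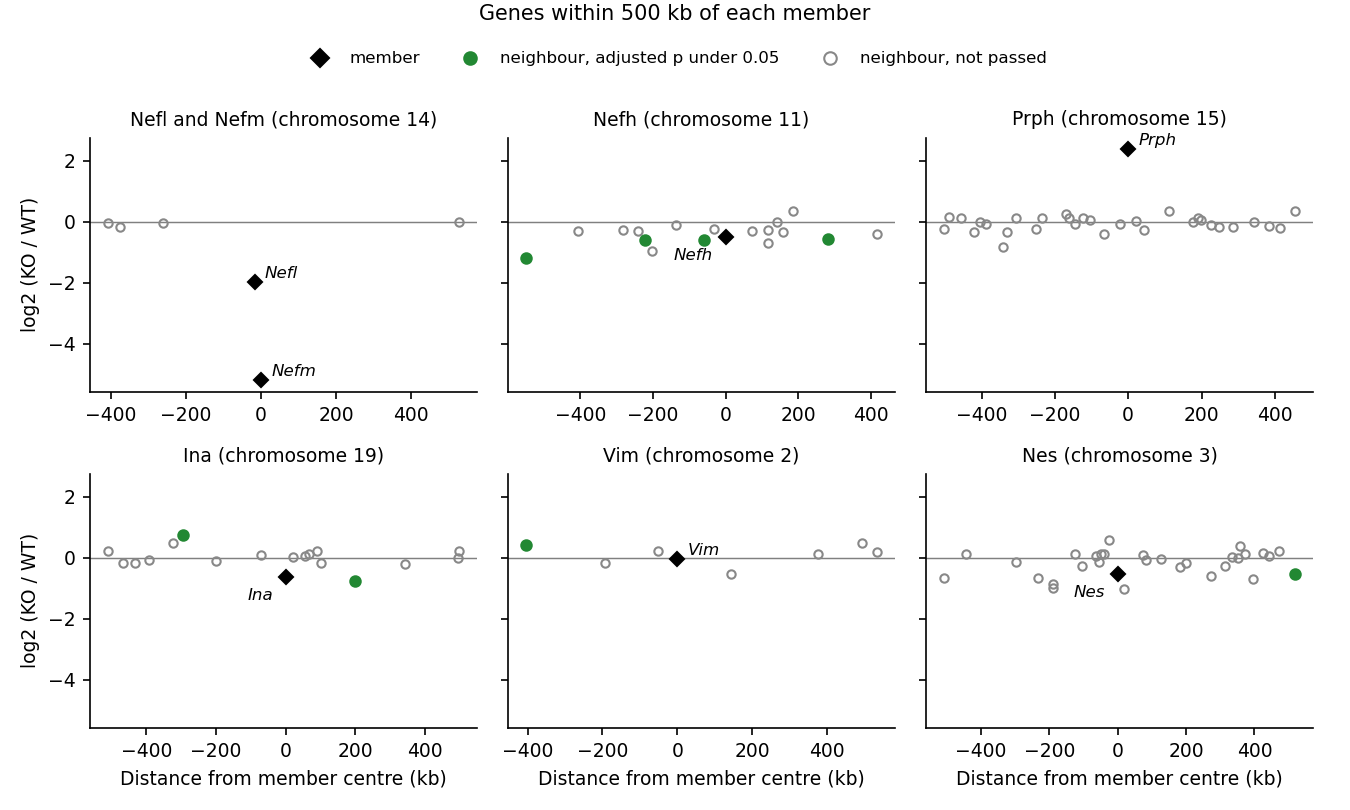
Log2 fold change (KO over WT) of each gene (diamonds) and of its tested neighbours within 500 kb (circles, filled where the adjusted p was under 0.05), against distance from the gene's centre in kilobases. *Nefl* and *Nefm* stand well under their 4 tested neighbours (-0.18 to 0.00) and *Prph* above its 31, whereas *Nefh* lies among neighbours with a median of -0.31.

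Of 16 further genes of the intermediate filament family, 12 were tested and 3 passed, all lower, beside 4.78% of all tested genes, with a median log2 fold change of -0.01 against 0.01 over all tested genes. *Des*, the muscle filament desmin, decreased from 268 ± 43.0 to 148 ± 18.3 normalized counts (-0.89, SE 0.19, adjusted p = 0.000148, DESeq2). *Krt8*, a keratin of simple epithelia, decreased from 670 ± 49.3 to 426 ± 29.2 (-0.66, SE 0.13, adjusted p = 2.77e-05, DESeq2), while its usual partner *Krt18*, named after its values were seen, had a log2 fold change of 0.15 (adjusted p = 0.844, DESeq2). *Lmna*, encoding the A-type lamins of the nucleus and also a neighbour of *Nes*, decreased from 516 ± 50.4 to 357 ± 31.1 (-0.54, SE 0.14, adjusted p = 0.0048, DESeq2). *Lmna* was lost without WT replicate 1 (-0.45, adjusted p = 0.128) or KO replicate 1 (-0.49, adjusted p = 0.113).

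Genes whose products link, move or turn over filaments were at a median of 0.01, and 2 of 13 passed, both lower, beside 4.78% of all tested genes. Neither passed in 4 of the fits that left out 1 library. *Kif5a*, a neuronal kinesin that carries neurofilaments, had a log2 value of -0.60 (SE 0.20, adjusted p = 0.0383, DESeq2), and this call was lost with edgeR (adjusted p = 0.0609) and when any of the 6 libraries was left out (-0.71 to -0.51, adjusted p = 0.069 to 0.337). *Trim2*, a ubiquitin ligase that acts on the light chain, had -0.34 (SE 0.10, adjusted p = 0.0159, DESeq2), lost without WT replicate 1 or 2 or KO replicate 1 or 2 (-0.34 to -0.32, adjusted p = 0.0929 to 0.184).

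Of 19 pan-neuronal genes outside the filament family, 18 were tested and 2 passed, 1 in each direction (11.1%, beside 7.49% of all tested genes), with a median of 0.12. They were *Ncam1*, an adhesion molecule (0.46, SE 0.14, adjusted p = 0.0151, DESeq2), and *Sncg*, γ-synuclein (-0.85, SE 0.26, adjusted p = 0.0191, DESeq2). *Ncam1* was lost without replicate 1 of either genotype or KO replicate 2 (0.39 to 0.48, adjusted p = 0.0996 to 0.197), and *Sncg* without any 1 library other than KO replicate 1 (-0.96 to -0.75, adjusted p = 0.0596 to 0.233). With the replicate block 5 passed, the added genes, named after their values were seen, being *Stmn2* (0.25), *Gap43* (0.57) and *Uchl1* (0.21), all higher. The summed normalized counts of the list were 13705 to 14248 in WT and 14904 to 16292 in KO. Most of each sum came from *Stmn2* (means of 5481 in WT and 6524 in KO) and *Tubb3* (3981 and 4244), both named after their values were seen. The sums therefore do not describe the list as a whole. Among 10 peripheral and motor neuron markers, the cell types in which *Prph* is best known, 7 were tested and 0 passed, beside 7.49% of all tested genes. With DESeq2 0 had an unadjusted p under 0.05. With edgeR 2 did, and 0 passed after adjustment. So few genes, most at low counts, cannot set the list apart. The sums of the list, 182 to 233 in WT and 179 to 225 in KO, overlapped, and *Pou4f1* (means of 123 and 128) made up most of them. Among 10 neural progenitor markers, the setting of *Nes*, 5 were tested and 0 passed (DESeq2; 0 at an unadjusted p under 0.05, 0 with edgeR), beside 7.49% of all tested genes. These 5 genes are too few to set the list apart, and its sums were 241 to 265 in WT and 200 to 285 in KO.

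Of 12 mesenchymal markers, the setting of *Vim*, 8 were tested and 4 passed, all higher, beside 2.70% of all tested genes, with a median log2 fold change of 0.90. Of the other tested markers, *Prrx1* had 1.03, *Pdgfrb* -0.16, *Col1a1* -0.23 and *Col1a2* -0.90, and none of these passed. The actin-cytoskeleton genes of smooth muscle led: *Acta2* went from 8.26 ± 3.71 to 42.1 ± 16.7 normalized counts (2.31, SE 0.54, adjusted p = 0.000698, DESeq2) and *Tagln* was 1.73 higher on the log2 scale (SE 0.36, adjusted p = 0.00011, DESeq2). *Twist1*, a transcription factor of mesenchyme (0.97, adjusted p = 0.0378, DESeq2), and the surface protein gene *Thy1* (0.83, adjusted p = 0.0147, DESeq2) were less firm. *Twist1* was lost with edgeR (adjusted p = 0.0686) and without WT replicate 1 or 3 or KO replicate 1 or 2 (0.71 to 1.02, adjusted p = 0.0626 to 0.511), and *Thy1* without any 1 library other than WT replicate 3 (0.67 to 0.94, adjusted p = 0.0518 to 0.248). The summed level of the list was 324 to 361 in WT and 503 to 550 in KO. The untested markers *Lum*, *Dcn*, *Col3a1* and *Twist2* were at or near 0 in all 6 libraries. *Pdgfrb* averaged 153 normalized counts in WT and 135 in KO, *Col1a1* 11.5 and 9.16, *Col1a2* 10.8 and 6.49, and *Prrx1* 5.47 and 12.6. The part of such transcripts in the levels of *Vim* or *Prph* was not tested.

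REST is the repressor that silences neuronal genes outside neurons, with CoREST proteins as partners. Of 10 REST and CoREST genes 1 passed (beside 7.49% of all tested genes): *Rcor2*, a CoREST member of ESCs and progenitors, rose from 1960 ± 100 to 3612 ± 219 normalized counts (0.88, SE 0.10, adjusted p = 2.54e-16, DESeq2). *Rest* itself, named after its values were seen, averaged 5507 and 5400 (-0.03, adjusted p = 0.941, DESeq2).

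**Figure D5:**
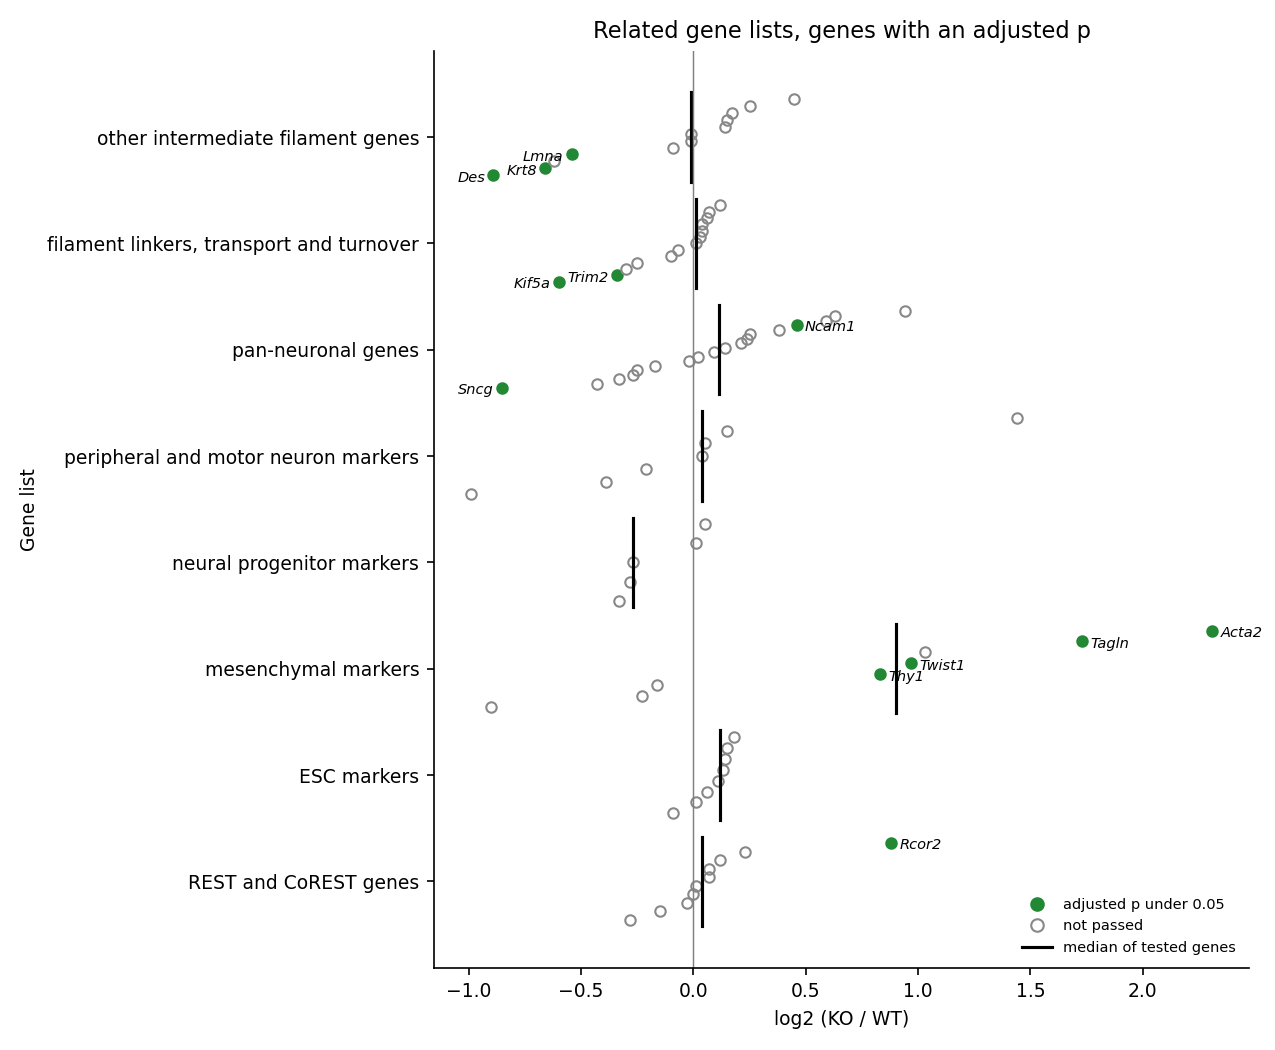
Log2 fold change (KO over WT) of the genes with an adjusted p in 8 related lists, with filled circles for an adjusted p under 0.05 and a bar at each list's median. The mesenchymal markers have the highest median (0.90, between *Thy1* at 0.83 and *Twist1* at 0.97) and range from -0.90 to 2.31, while the filament, linker and pan-neuronal lists sit near 0.

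The genes whose profile over the 6 libraries lay nearest to that of *Nefm*, by root-mean-square distance on the log2 scale among 11736 genes, were *Ddx3y* (distance 0.28) and *Uty* (0.56) on the Y chromosome and *Xlr3a* (0.93) on X. *Ddx3y* averaged 1837 normalized counts in WT and 58.4 in KO, *Uty* 707 and 22.9, and *Xlr3a* 221 and 4.21. The nearest to *Prph* were *Aire* (0.32), *Igsf21* (0.36) and *Sv2a* (0.39), with *Aire* at 77.7 in WT and 332 in KO, *Igsf21* at 29.9 and 158, and *Sv2a* at 35.9 and 268. This likeness is a description of profiles that share the same libraries. The WT mean of each gene was subtracted, so the distance rests mostly on the KO against WT difference, which chose *Nefm* and *Prph*. The low KO levels of these Y-linked and X-linked genes lie in the same libraries as that of *Nefm*, and whether they are a trait of a KO clone was not tested.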

How the data were processed

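Total RNA from E14 ESCs was sequenced after removal of ribosomal RNA, from libraries that were stranded TruSeq with RiboZero Gold per the labels, whereas the study's methods name KAPA kits. The authors deposited raw read counts per gene symbol, 1 table per library, not normalized, on mm10. The submitters' processing notes list TopHat2 2.1.1, Bowtie2 2.3.1.0, featureCounts 1.6.2 and DESeq2, with no roles. The annotation and the use of strand, duplicates and multi-mapped reads are not given in the sources used here.

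All genes were fitted together with DESeq2 (version 1.42.0, R 4.3.3): Wald test, two-sided, genotype alone, median-of-ratios size factors, default independent filtering (optimised at 0.1), no shrinkage, Benjamini-Hochberg adjustment, threshold 0.05. The test and threshold are those the study names. Intervals are 1.96 SE. Alternatives were the edgeR quasi-likelihood test (version 4.0.16), TMM size factors, a filter of 10 counts in 3 libraries or more, switching off independent filtering, a block for the replicate number, centring chromosome 11 on its median over genes with a mean of at least 50 normalized counts (also with the block), leaving out each library and, added after seeing the data, leaving out both replicate 3 libraries. Fits were tested on simulated data. Replicate numbers are shared in the titles. Deviations of same-numbered libraries from their genotype mean correlated at 0.469, 0.619 and 0.684 over 11524 genes. Libraries of different number were not compared in this way, and both replicate 3 libraries were shallow. These values therefore do not settle whether the libraries were paired, and fits with the block assume it. No 2 libraries agreed within sampling noise.

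Members, lists and tests were chosen with earlier results of these data known. Genes named were the 7 members, the list genes and neighbours that passed (the 5 with the largest absolute change where more than 5 did), the 3 genes nearest in profile to *Nefm* and to *Prph* (log2 of normalized count plus 1, minus the WT mean, a mean of 50 or more in the genotype where it was higher) and *Patz1*; any other is said to be named after its values were seen or gives the level of a marker. Positions came from GENCODE M21 on GRCm38 (23026 of 23420 symbols, 1249 through an older symbol) and promoters from RefSeq, in which 4 of the 7 members matched.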

Additional observations from a re-analysis of the deposited data

How the results depend on the processing

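Over all genes, 1146 passed, 918 with chromosome 11 centred, 2131 with the replicate block and 1744 with centring and the block. Without both replicate 3 libraries 1332 passed, and 583 to 1341 when 1 library was left out. Of the members other than *Nefm* and *Prph*, 2 passed, 1 with chromosome 11 centred and 4 without both replicate 3 libraries. With the replicate block 3 of them passed, with or without centring. Among linker and transport genes (2) it was 1 with edgeR, 1 without both replicate 3 libraries and 0 to 1 when 1 library was left out (0 without WT replicate 1 or 2 or KO replicate 1 or 2, where 2 to 3 had an unadjusted p under 0.05). Among pan-neuronal genes (2) it was 5 with the replicate block, 5 with centring and the block, 1 without both replicate 3 libraries and 0 to 2 when 1 library was left out (0 without WT replicate 1 or KO replicate 2, where 3 and 4 had an unadjusted p under 0.05). Mesenchymal markers (4) gave 2 to 3 with 1 library left out, ESC markers (0) gave 3 with the block and 3 with centring and the block, and neighbours (8) gave 18 with the block and 5 to 12 with 1 library left out.

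Among the members, the block turned the call for *Nes* and, with chromosome 11 centred, that for *Nefh*, and the filter of 10 counts in 3 libraries turned that for *Nes* (adjusted p = 0.0469). Among the filament and linker genes the block added, named after their values were seen, *Lmnb1* (0.16, adjusted p = 0.03) and *Macf1* (-0.24, adjusted p = 0.000182). No fitted value of a member reversed its direction in these alternatives except that of *Vim*, which never passed and lay between -0.12 and 0.04. Depth limits *Nefm* in KO most, where 1 to 13 reads were counted, and *Ina* in both replicate 3 libraries. Strand use in the counting bears on *Nefl*, *Nefm* and *Ina*.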
